A study of Mus musculus with 4 samples.

Results

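The genes described here are 10 mouse genes for surface or secreted molecules through which other cells stimulate or restrain T cells: Cd274, Pdcd1lg2, Lgals9, Cd276, Cd80, Cd86, Icosl, Cd40, Tnfsf9 and Icam1. They were chosen by name, with earlier results of these data known, from 54532 genes with a deposited FPKM value. FPKM divides a gene's reads by its length and by the size of the library. RNA sequencing of total RNA was done on 4 libraries of CB6F1 mouse cells labelled MSCs, isolated by digestion of whole bone marrow and grown in high-glucose DMEM with serum. In the R group (n = 2) the cells were given a compound called R at 0.5 µM in culture, a unit the labels write as "um". In the vehicle group (n = 2) they were given the solvent DMSO. All 4 sample titles carry the term aGVHD, which the labels do not spell out, and no untreated cells or cells without that term were compared. What R is, how long it was given, and whether a replicate is its own animal or culture are not stated in the labels. P-values therefore measure only the spread between these libraries, which may be technical.

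A T cell needs a signal through its antigen receptor and a second signal from costimulatory molecules. CD80 and CD86 give that second signal through CD28, and also bind the inhibitory receptor CTLA-4. Ligands of the TNF family such as 4-1BBL, encoded by Tnfsf9, prolong the response, and ICAM-1 holds the cells together through the integrin LFA-1. PD-L1 (Cd274) and PD-L2 (Pdcd1lg2) oppose activation through PD-1. Cultured stromal cells are known for restraining T cells, and interferon gamma is known to induce several of these genes.

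The libraries held 16534440 to 18085183 reads on genes whose FPKM values gave whole reads. Macrophage transcripts were abundant in cells labelled MSCs. The summed FPKM of 17 macrophage and monocyte markers was 15862 and 12177 in R replicates 1 and 2 and 23253 and 20806 in vehicle replicates 1 and 2, with none of the 17 at 0. The sum of 13 mesenchymal stromal markers was 1905 and 1943 in R and 1547 and 1520 in vehicle. Of these 13, 11 passed the filter for testing, among them Pdgfra at 10.7 to 14.9 FPKM and Cxcl12 at 462 to 517 FPKM. The other 2, Lepr and Thy1, were below 1 FPKM in every library, and none of the 13 was at 0. Of 9 T and NK cell markers 7 were listed at 0 in all 4 libraries, among them Cd3e, Cd3d and Cd3g. Of the dendritic cell markers, 0 of 8 passed the filter for testing, and Cd209a was listed at 0 throughout. In a mixed culture, fewer cells of a type and less RNA per cell cannot be told apart. R replicate 2 had the lowest FPKM sum, 287360 against 333130 to 345709.

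Setting R against vehicle asks how these transcripts compare between treated cells and cells given solvent alone. Most of the 10 genes had lower mean levels in R, but none of them passed the test. The limma test on log2(FPKM + 1) took in the 12176 genes whose mean reached 1 FPKM, 8 of the 10 among them. Each of the 8 was above 1 FPKM in all 4 libraries. At a Benjamini-Hochberg (BH) adjusted p under 0.05, limma called 0 of the 8, and voom on recovered reads called 1 (Lgals9). Over all tested genes limma called 1.72%, with 1.37% lower (167 genes) and 0.345% higher (42 genes). Rescaled to TPM, 122 genes were lower and 59 higher, and the median over all genes moved to a log2 fold change of 0.11. At an unadjusted p under 0.05, 5 of the 8 were lower and 0 higher, beside 8.83% of all tested genes lower. Such a p was reached by 3 of the 8 on the TPM scale, and by 4 without the variance trend or with voom. Over all tested genes 1947 reached it in the fit as reported, 2104 on the TPM scale, 1946 without the variance trend and 1998 with voom. The count of the 8 stayed at 5 after quantile normalization and with smaller pseudocounts. It was lower when either vehicle library or R replicate 1 was left out. Both R libraries lay below both vehicle libraries for 6 of the 8, beside 25.2% of all tested genes, and above both for 0 of the 8, beside 22.7%. The median log2 fold change of the 8 was -0.36, with 7 below 0, beside 50.0% of all tested genes. With 2 libraries against 2, an exact two-sided permutation test of a single gene cannot give a p below 0.333.

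**Figure D1:**
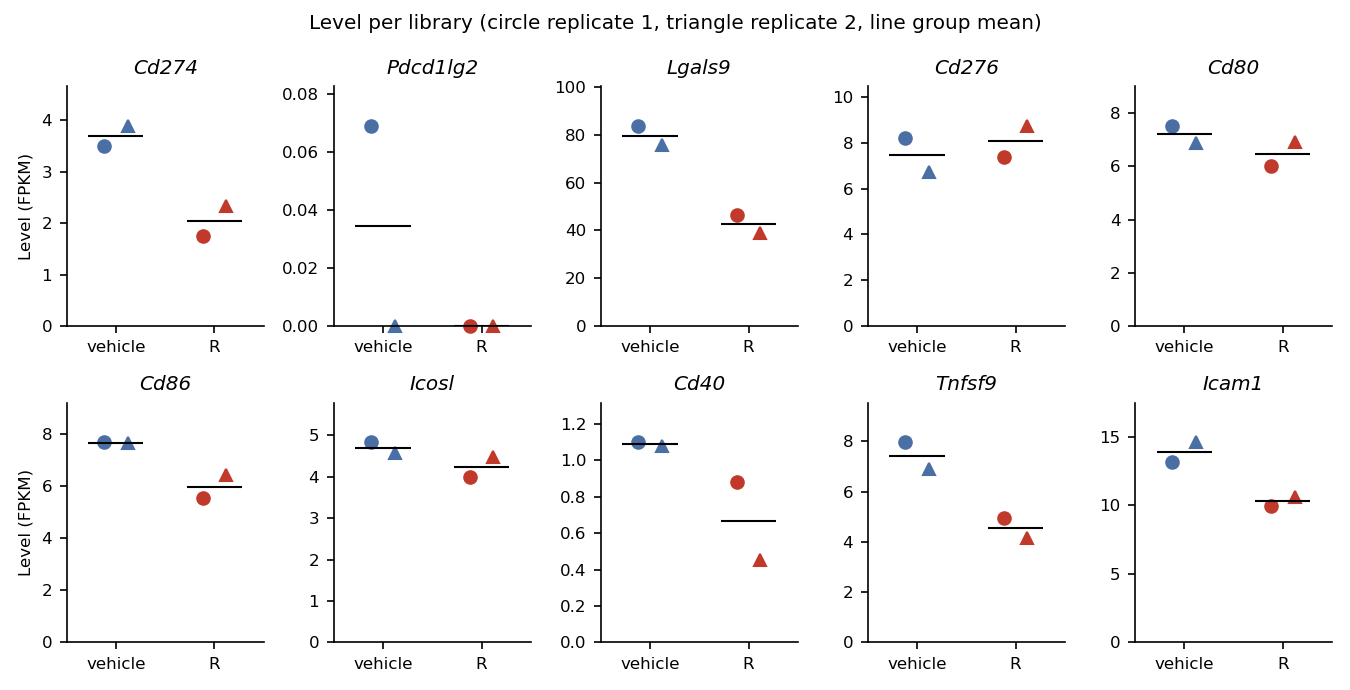
Level in FPKM of each of the 10 genes in the 2 vehicle libraries (blue) and the 2 R libraries (red), with circles for replicate 1, triangles for replicate 2 and lines for group means; each panel has its own axis from 0. The R points lie below both vehicle points for Lgals9, Cd274, Tnfsf9, Icam1, Cd86, Icosl and Cd40, and overlap them for Cd80, Cd276 and Pdcd1lg2.

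Promoter sequences are shown for 3 genes: Lgals9, which had the smallest p of the 8, Icam1, and Cd274, the gene of PD-L1. Of the windows found, only those of Lgals9 and Icam1 held a match to the motifs below. They are the 250 bases before the gene start in RefSeq (GRCm38.p6), 5′ to 3′ on the gene's strand. These starts can differ from those of GENCODE M21, whose coordinates are given below. The Icam1 window ends at 21015939, short of the GENCODE start at 21015985. The windows of Lgals9 and Icosl reach into the gene as GENCODE places it, and those of Cd80 and Cd276 lie wholly inside it. For Icam1, Cd274 and Cd276 a stretch just after the RefSeq start was not found in a GENCODE transcript of the gene. Capitals mark matches on either strand to TTCNNNGAA, the gamma-activated site of interferon gamma signalling, to the core of the interferon-stimulated response element (GAAA, any 2 bases, GAAA), or to an NF-kB site form (GGG, any 2 bases, TTTCC). Windows were found for 7 of the 10 genes, all but Cd86, Cd40 and Tnfsf9.
Lgals9, chr11:78984925-78985174, minus strand: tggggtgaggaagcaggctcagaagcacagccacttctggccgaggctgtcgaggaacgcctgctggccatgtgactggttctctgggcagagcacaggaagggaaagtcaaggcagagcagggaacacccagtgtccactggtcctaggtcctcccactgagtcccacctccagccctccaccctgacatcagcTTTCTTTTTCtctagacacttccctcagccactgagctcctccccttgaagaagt
Icam1, chr9:21015690-21015939, plus strand: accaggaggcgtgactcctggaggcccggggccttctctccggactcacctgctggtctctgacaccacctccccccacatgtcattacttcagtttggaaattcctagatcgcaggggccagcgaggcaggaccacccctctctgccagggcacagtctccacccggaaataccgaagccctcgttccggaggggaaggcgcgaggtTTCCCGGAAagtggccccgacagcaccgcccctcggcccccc
Cd274, chr19:29367188-29367437, plus strand: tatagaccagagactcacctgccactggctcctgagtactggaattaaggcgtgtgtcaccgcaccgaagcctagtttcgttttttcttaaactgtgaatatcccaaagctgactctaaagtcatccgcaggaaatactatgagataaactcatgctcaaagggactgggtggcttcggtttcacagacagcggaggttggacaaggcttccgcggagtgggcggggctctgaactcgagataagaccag
The Lgals9 window held 1 match to the response element core, 55 to 46 bases before the RefSeq start. Among all 32851 promoter windows 2.98% held this motif. The Icam1 window held 1 match to the gamma-activated site, 42 to 34 bases before the RefSeq start, a motif found in 7.02% of windows. The 5 other windows, that of Cd274 among them, held none of the 3 motifs, and the NF-kB form stood in 1.41% of all windows. The matches do not overlap, and a match is a description of letters, not of a bound site.

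Cd274 encodes PD-L1, the main ligand of the inhibitory receptor PD-1, and spans positions 29367455 to 29388095 of chromosome 19 (GRCm38, GENCODE M21, plus strand). It was at 1.75 and 2.34 FPKM in R replicates 1 and 2 and at 3.51 and 3.89 FPKM in vehicle replicates 1 and 2. Both R libraries were low and the groups did not overlap. These values rested on 122 and 153 reads in R and on 224 and 253 reads in vehicle, and the highest exact Poisson 95% limit in R, 179 reads, was below the lowest in vehicle, 196 reads. Such limits cover counting error only. The vehicle mean was 1.81 times the R mean, and the log2 fold change of FPKM + 1 was -0.63 (SE 0.155, 95% interval -1.02 to -0.25). It did not pass (limma, BH-adjusted p = 0.126), although its unadjusted p in limma's fit across all genes was 0.00677. Of all tested genes 3.71% had a lower log2 fold change. Without R replicate 2 it passed (limma, BH-adjusted p = 0.0456), with a log2 fold change of -0.77. An annotated antisense gene shares 511 exon bases with Cd274 and was not analysed here. The labels do not say whether the libraries kept strand.

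Pdcd1lg2, which encodes PD-L2, the other PD-1 ligand, starts 22823 bases after the end of Cd274 on the same strand. It was listed at 0 FPKM in both R libraries and in vehicle replicate 2, and at 0.0689 FPKM in vehicle replicate 1. At this level no difference between the groups was detectable. Jak2, a kinase of the interferon gamma receptor, ends 54374 bases before Cd274. Its level was 6.89 and 8.35 FPKM in R and 8.60 and 9.94 FPKM in vehicle, and it did not pass (limma, BH-adjusted p = 0.465). The 3 neighbours thus lay at different levels, from listed at 0 to 9.94 FPKM.

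Lgals9 encodes galectin-9, a sugar-binding protein that acts on T cells through receptors including TIM-3, and lies at 78962974 to 78984946 of chromosome 11 on the minus strand. It was the most abundant of the 10 genes in each library, at 46.5 and 39.1 FPKM in R and 83.7 and 75.7 FPKM in vehicle. The lower vehicle library was above the higher R library. The vehicle mean was 1.86 times the R mean, and the log2 fold change was -0.89 (SE 0.147, 95% interval -1.25 to -0.52). This missed the threshold narrowly (limma, BH-adjusted p = 0.0532, unadjusted p = 0.00105). Across 13 alternatives that left the replicate number out, 7 brought it past the threshold, with adjusted p values in limma from 0.0135 to 0.297, and voom on recovered reads was among them (BH-adjusted p = 0.0223). All 13 gave a negative log2 fold change, from -1.01 to -0.75. The reads behind the values were 1918 and 1510 in R and 3155 and 2902 in vehicle, so counting error was small beside the difference. The window printed above for Lgals9 is the one with the response element core.

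The macrophage marker sum was lower in the same libraries, and its part in the Lgals9 values was not tested. Lyz2 was the largest part of that sum, at 8891 and 7061 FPKM in R and 14569 and 12540 FPKM in vehicle. It did not pass (limma, BH-adjusted p = 0.321). The median level of the 17 markers was 215 and 267 FPKM in R and 261 and 268 FPKM in vehicle, so by the median the groups overlapped. Gene by gene, both R libraries lay below both vehicle libraries for 14 of the 17, beside 25.2% of all tested genes. They lay above both for 0 of the 17, beside 22.7%. The log2 fold changes of the 17 markers ran from -1.90 to 0.10 with a median of -0.59. A shift common to all 17 was not tested.

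Cd276 encodes B7-H3, a member of the B7 family whose receptor on T cells is not settled and which stromal cells and tumours carry. The gene lies at 58524298 to 58555437 of chromosome 9. It was at 7.38 and 8.73 FPKM in R and at 8.21 and 6.72 FPKM in vehicle, and the groups overlapped. It was the only one of the 8 with a log2 fold change above 0, at 0.10 (SE 0.150, 95% interval -0.27 to 0.47; limma, BH-adjusted p = 0.803). That sign turned when R replicate 2 or vehicle replicate 2 was left out. The ratio of Cd274 to Cd276, both in FPKM, was 0.236 and 0.267 in R and 0.427 and 0.579 in vehicle, lower in both R libraries.

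Among the B7 ligands of CD28 and ICOS, differences were smaller. Cd86, at 36603869 to 36666081 of chromosome 16, was at 5.55 and 6.42 FPKM in R and 7.68 and 7.64 FPKM in vehicle. The R values were lower and did not overlap those of vehicle, with a log2 fold change of -0.31 (SE 0.125, 95% interval -0.62 to -0.0045). It did not pass (limma, BH-adjusted p = 0.306). Cd80, at 38455561 to 38496335 of the same chromosome, was at 6.02 and 6.90 FPKM in R and 7.52 and 6.89 FPKM in vehicle. Here R replicate 2 was level with vehicle replicate 2, and the log2 fold change of -0.14 had a 95% interval from -0.46 to 0.18 (limma, BH-adjusted p = 0.663). The 2 genes were thus at similar levels. The ratio of Cd80 to Cd86 was 1.08 and 1.07 in R and 0.979 and 0.902 in vehicle. Icosl, at 78069302 to 78083913 of chromosome 10, encodes the ligand of the T cell costimulator ICOS. It was at 3.98 and 4.47 FPKM in R and 4.82 and 4.56 FPKM in vehicle, a gap between the groups smaller than the spread within R. Its log2 fold change was -0.12 (SE 0.126, 95% interval -0.43 to 0.19; limma, BH-adjusted p = 0.697). For Cd80, Icosl and Cd276 the intervals leave room for a change in either direction.

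**Figure D2:**
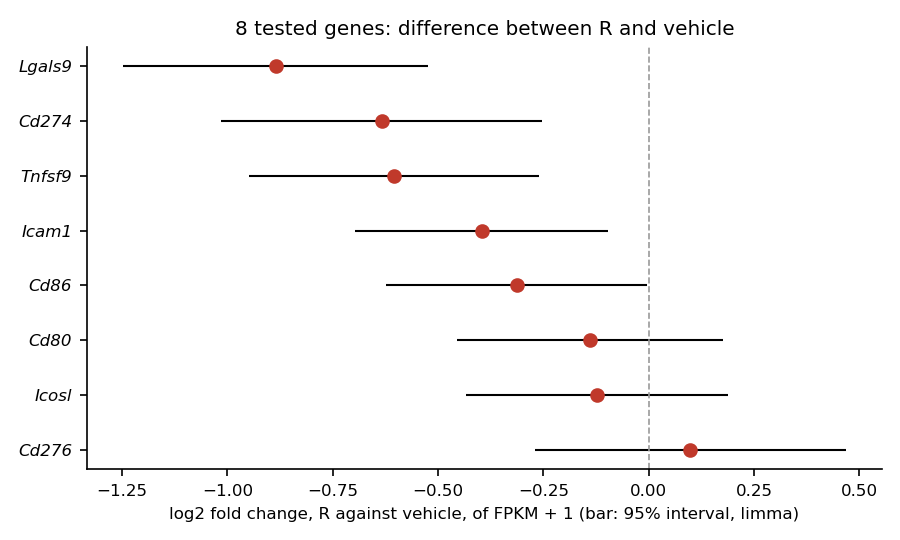
Log2 fold change of R against vehicle on the FPKM + 1 scale for the 8 tested genes, with 95% intervals from limma; the dashed line marks no difference. Lgals9 at -0.89, Cd274 at -0.63 and Tnfsf9 at -0.60 lie farthest from 0, and the intervals of Cd80, Icosl and Cd276 cross it.

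Of the 10 genes, Tnfsf9 belongs to the TNF family and Cd40 to the TNF receptor family, and both had lower means in R. Tnfsf9 encodes 4-1BBL, a ligand that sustains activated T cells, and lies at 57105325 to 57107757 of chromosome 17. It was at 4.94 and 4.16 FPKM in R and at 7.95 and 6.91 FPKM in vehicle. The groups did not overlap, and the vehicle mean was 1.63 times the R mean. The log2 fold change was -0.60 (SE 0.140, 95% interval -0.95 to -0.26). It did not pass (limma, BH-adjusted p = 0.113, unadjusted p = 0.00527), but passed without R replicate 1 (adjusted p = 0.0436 in limma). The reads were few, 123 and 97 in R and 181 and 160 in vehicle. The Poisson 95% limits of R replicate 1 and vehicle replicate 2 overlap, with an upper limit of 147 and a lower one of 136 reads. A long noncoding gene on the other strand, Gm11110, shares 192 exon bases with Tnfsf9 and was at 1.09 and 1.11 FPKM in R and 1.61 and 1.32 FPKM in vehicle. Its part in the Tnfsf9 values was not tested.

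2 further TNF ligands, Cd70 and Tnfsf14, lie close by on chromosome 17. Cd70, the ligand of CD27, at 57145997 to 57149777, was listed at 0 in all libraries. Tnfsf14, which encodes LIGHT, at 57189492 to 57194177, was named after its values were seen. It was at 0.617 and 0.748 FPKM in R and 1.44 and 1.36 FPKM in vehicle, and did not pass (limma, BH-adjusted p = 0.191). Both R libraries lay below both vehicle libraries for Tnfsf9 and Tnfsf14, beside 25.2% of all tested genes, and neither gene passed.

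Cd40 encodes the receptor by which T cells carrying CD40 ligand stimulate antigen-presenting cells, and lies at 165055627 to 165072948 of chromosome 2. It was at 0.882 and 0.454 FPKM in R and 1.10 and 1.08 FPKM in vehicle. Its mean was below the filter, so it was not tested. Both R libraries were below vehicle, and they differed from each other by more than R replicate 1 differed from vehicle. The reads were 58 and 28 in R and 66 in each vehicle library, and the Poisson 95% intervals of R replicate 1 (44.0 to 75.0) and of vehicle (51.0 to 84.0) overlap.

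Icam1 encodes the adhesion molecule that binds LFA-1 on T cells and Mac-1 on myeloid cells, and lies at 21015985 to 21028817 of chromosome 9. It was the second most abundant of the 10, at 9.98 and 10.6 FPKM in R and at 13.1 and 14.6 FPKM in vehicle. Both R libraries were low and close to each other. The log2 fold change was -0.40 (SE 0.122, 95% interval -0.70 to -0.10), and it did not pass (limma, BH-adjusted p = 0.199, unadjusted p = 0.0181). Its window printed above holds the gamma-activated site match.

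In vehicle, the order of mean levels below Lgals9 (79.7 ± 5.67 FPKM) and Icam1 (13.9 ± 1.02) was Cd86 (7.66 ± 0.0274), Cd276 (7.47 ± 1.06), Tnfsf9 (7.43 ± 0.737) and Cd80 (7.21 ± 0.441; SD, n = 2 each). Neighbours among these last 4 did not differ beyond their spread. Icosl (4.69 ± 0.186 FPKM), Cd274 (3.70 ± 0.274) and Cd40 (1.09 ± 0.0131; SD, n = 2 each) followed, each apart from the next. In R the order after Icam1 (10.3 ± 0.427 FPKM) began with Cd276 (8.06 ± 0.958; SD, n = 2 each), and Tnfsf9 (4.55 ± 0.554) was below Cd86 (5.98 ± 0.614; SD, n = 2 each).

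Of 22 genes for receptors and partners of these and related molecules, 17 were too low to test. The PD-1 gene Pdcd1, Ctla4 and Cd40lg, which encodes CD40 ligand, were listed at 0 in all 4 libraries. Icos was at most 0.0650 FPKM, and Tnfrsf9, the receptor of 4-1BBL, at most 0.229 FPKM. Havcr2, which encodes TIM-3, was at 4.04 and 4.12 FPKM in R and 5.33 and 4.75 FPKM in vehicle. The LFA-1 subunits differed in sign: Itgb2, the chain shared with other leukocyte integrins, was at 77.5 and 79.7 FPKM in R and 103.7 and 100.7 FPKM in vehicle. Itgal, the chain specific to LFA-1, was at 5.66 and 6.49 FPKM in R and 5.20 and 5.39 FPKM in vehicle. Cd28 was at 6.27 and 8.40 FPKM in R and 8.61 and 10.1 FPKM in vehicle, with 741 to 1107 reads, in libraries where Cd3e, Cd3d and Cd3g were listed at 0. Of the 22 genes 5 were tested and limma called 0 by BH-adjusted p. Among the 5, 1, Itgb2, was lower at an unadjusted p under 0.05, beside 8.83% of all tested genes. The median log2 fold change of the 5 was -0.28.

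Of 25 other ligands and surface partners 14 were tested, and 1 fell and 0 rose, beside 1.37% and 0.345% of all tested genes. The 1 that fell was Fgl2, fibrinogen-like protein 2, whose secreted form is known to restrain T cells. Fgl2 was at 1.04 and 1.61 FPKM in R and 4.85 and 5.86 FPKM in vehicle, a log2 fold change of -1.46 (SE 0.176; limma, BH-adjusted p = 0.0206). The call was lost on the TPM scale (limma, BH-adjusted p = 0.0566). It was also lost without a filter on low values (limma, BH-adjusted p = 0.176), as was every other call. The median of the 14 was -0.16, and 6 were lower at an unadjusted p under 0.05, beside 8.83% of all tested genes.

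All 13 genes of the interferon route to PD-L1, from receptors to transcription factors, were tested. Of these 2 fell and 0 rose, beside 1.37% and 0.345% of all tested genes. The 2 were Stat2 and Irf9, whose proteins belong to the complex that binds the response element. Stat2 fell, with a log2 fold change of -1.40 (limma, BH-adjusted p = 0.00763). Irf9 fell too, with a log2 fold change of -1.55 (limma, BH-adjusted p = 0.0075). Both calls held when any 1 library was left out, and were lost without a filter on low values, where 0 of all genes passed. Irf1, an interferon-induced factor known to act on the PD-L1 promoter, was at 9.41 and 9.65 FPKM in R and 12.7 and 11.5 FPKM in vehicle and did not pass (limma, BH-adjusted p = 0.284). The median log2 fold change of the 13 was -0.34, close to the -0.36 of the 8 tested checkpoint and costimulatory genes. Of the 17 macrophage markers 4 fell (Fcgr1, Ctss, Itgam and Ly86), beside 1.37% of all tested genes. Of the 11 tested stromal markers 1 fell (Ly6a) and 0 rose, but 7 had a log2 fold change above 0, with a median of 0.06. Both R libraries lay above both vehicle libraries for 5 of the 11 and below both for 2, beside 22.7% and 25.2% of all tested genes. The part of the macrophage and stromal markers in the interferon route values was not tested.

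Of 13 genes of the NF-kB route, which CD40 and 4-1BB signals use and which is known to induce Icam1 and Cd80, limma called 0 after adjustment. Of these, 2 were lower at an unadjusted p under 0.05, beside 8.83% of all tested genes, and the median log2 fold change was -0.08. The members with the smallest p were Nfkbia, Birc3 and Nfkbie, feedback and target genes, with log2 fold changes of -0.56, -0.68 and -0.28. Of 9 genes known to control the PD-L1 protein after translation limma called 0. At an unadjusted p under 0.05 the count was 0 too, beside 16.0% of all tested genes. The median of the 9 was -0.01. Their smallest p values belonged to Stub1, Cmtm4 and Cops5, with log2 fold changes of 0.26, 0.21 and 0.09.

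**Figure D3:**
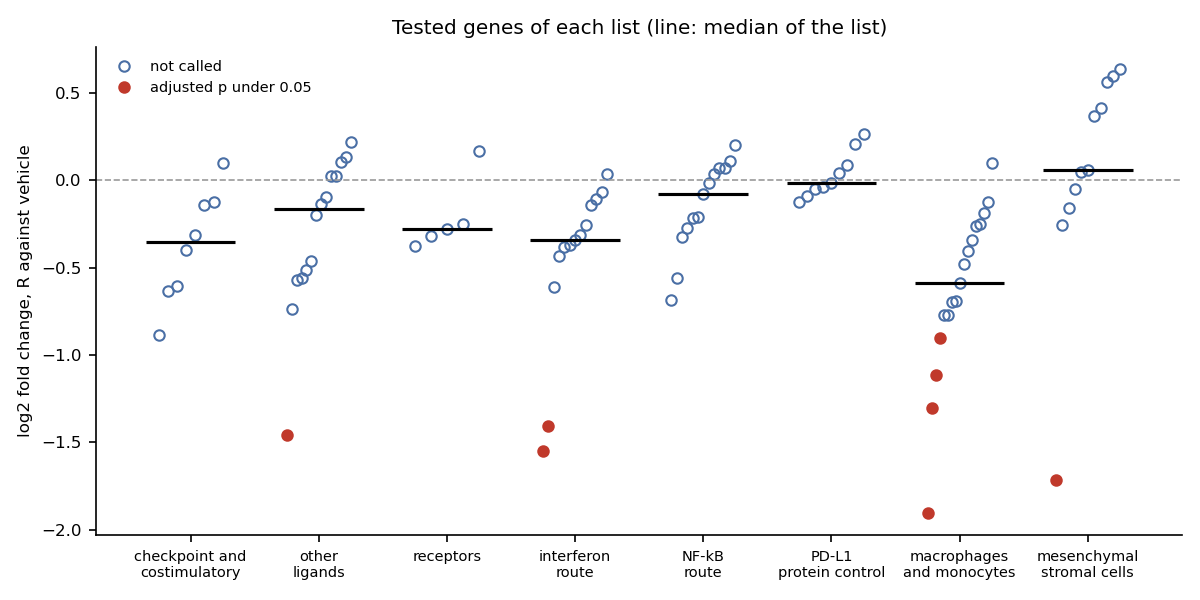
Log2 fold change of R against vehicle for each tested gene of the checkpoint and costimulatory genes, of 5 related lists and of 2 cell type marker lists; filled points passed the adjusted threshold and lines are medians. The medians are -0.36 for the checkpoint and costimulatory genes, -0.34 for the interferon route, -0.08 for the NF-kB route and -0.59 for the macrophage markers. The median of the stromal markers is 0.06.

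The calls on the 8 genes turned on single libraries and on the setting. Besides Lgals9, Tnfsf9 passed in 2 and Cd274 in 1 of those 13 alternatives, although for Cd274 and Icosl the stricter filter gave no value. Icam1, Cd86, Cd80, Icosl and Cd276 passed in 0 of those that gave them a value. Without vehicle replicate 1 or vehicle replicate 2, 0 of the 8 passed, beside 1.59% and 2.13% of tested genes called lower. Without R replicate 1, Lgals9 and Tnfsf9 passed, beside 5.46%. Without R replicate 2, Lgals9 and Cd274 passed, beside 3.37%. Lgals9 alone passed on the TPM scale, after quantile normalization (1.52% called lower), under a stricter filter on the mean, 5 FPKM (2.18%), and with voom (1.95%). Lgals9 and Tnfsf9 passed with a length trend removed (2.84%). With a smaller pseudocount of 0.5 (1.35% called lower) or without the variance trend (1.34%), 0 of the 8 passed. With the replicate number as a block 4 of the 8 passed, where 8.29% of all tested genes were called lower.

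**Figure D4:**
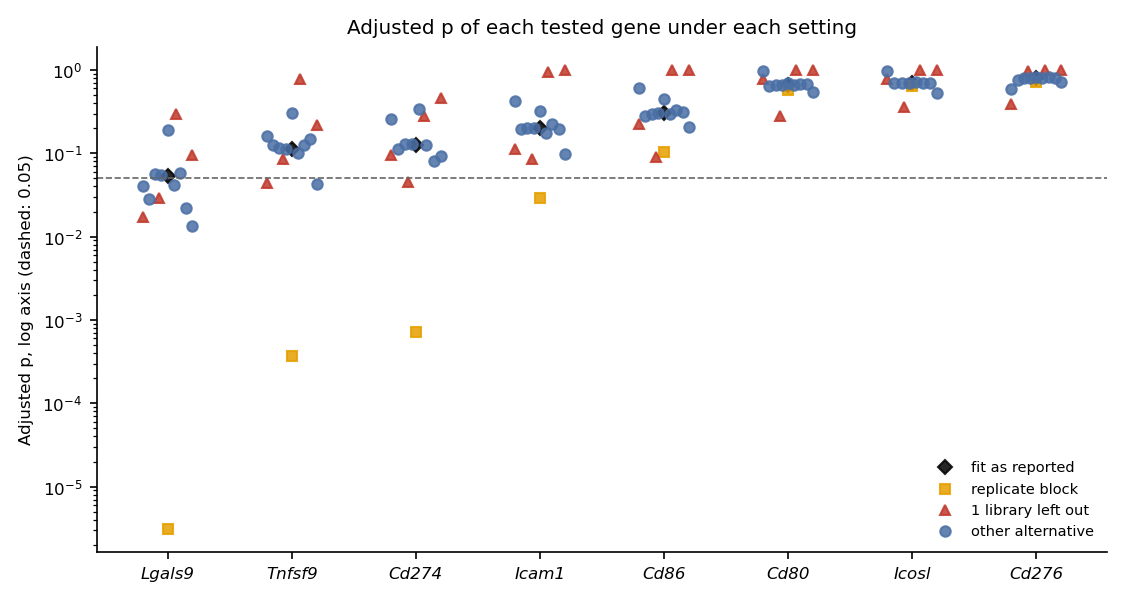
BH-adjusted p from limma, on a log axis, for each of the 8 tested genes under the fit as reported (diamond), with a replicate block (square), with 1 library left out (triangles) and under the other alternatives (circles). Lgals9 lies on both sides of the dashed line at 0.05, while Cd80, Icosl and Cd276 lie above it under every setting shown.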

How the data were processed

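The table the authors deposited holds FPKM for 54532 Ensembl gene IDs in each library, as its header names them. The builds GRCm38 and mm10 and edgeR 3.18.1 are named per the submitters' processing notes, with no role; which aligner, counter, annotation or filter was used is not given in the sources used here. GENCODE M21 (GRCm38) gave symbols, coordinates and exon lengths for 54495 genes. FPKM times exon length gave whole reads, within 0.02, for 96.3 to 96.4% of values above 0. Groups came from the sample titles. Genes whose mean reached 1 FPKM were analysed as log2(FPKM + 1) in limma 3.58.1 under R 4.3.3 (no further terms, eBayes with trend, Benjamini-Hochberg adjustment over 12176 genes), so fold changes of low genes are understated. The fit, with 2 residual degrees of freedom, was tested on simulated data. The 10 genes and all lists were chosen with earlier results of these data known. All 10 were named; of other lists the called genes, or else the 3 with the smallest p, and fixed receptors and Irf1. Some listed genes are not reported here and were left out of the lists' counts and medians. Alternatives covered TPM, quantile normalization, pseudocounts, filters, the variance trend, a replicate block, voom on recovered reads and leaving out each library. The removal of a gene length trend was chosen after seeing the data.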

Additional observations from a re-analysis of the deposited data

How the results depend on the processing

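Of 110 values of the 8 tested genes under 14 alternatives, 108 kept their direction and 94 their direction and side of the threshold. The 2 that turned were of Cd276, and the cause was not tested. Its log2 fold change was -0.00918 without R replicate 2, and over all libraries left out in turn it ran from -0.0288 (without vehicle replicate 2) to 0.227 (without vehicle replicate 1). The count of the 8 that passed, 0 as reported, was 1 on the TPM scale, 1 after quantile normalization, 1 with a mean of at least 5 FPKM, 1 with voom and 2 with the length trend removed. It ran from 0 to 2 with 1 library left out. All genes called, 42 higher and 167 lower as reported, were 0 and 0 without a filter, 209 and 346 with the length trend removed, and 85 higher with voom. With 1 library left out they ran from 96 to 438 higher and from 193 to 665 lower. Genes called in the 5 related lists, 3 as reported, were 0 without a filter, 5 with voom, 6 with the length trend removed, and 3 to 9 with 1 library left out. With the replicate number as a block, 891 genes were higher and 1009 lower, 4 of the 8 passed (Lgals9, Cd274, Tnfsf9 and Icam1), and so did 13 genes of the related lists. Deviations of same-numbered libraries correlated at 0.353 over tested genes. The labels do not say that a number marks a shared animal or day, so what same-numbered libraries share beyond it is not known. The edgeR test planned for recovered reads was not run. The causes of these shifts were not tested. Depth limits Cd40 and Pdcd1lg2, which have few or no reads.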

Other observations

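Tnfrsf14, which encodes HVEM, the receptor of LIGHT, differed more between replicate numbers than between R and vehicle. It was at 4.11 and 4.06 FPKM in replicate 1 of R and of vehicle and at 6.96 and 6.74 FPKM in replicate 2. It did not pass between R and vehicle (limma, Benjamini-Hochberg adjusted p = 0.976, log2 fold change 0.03), and the difference by number was not tested. The gene was picked after its values were seen. Vsir, which encodes the inhibitory ligand VISTA, was more abundant than any of the 10 genes but Lgals9. It was at 64.8 and 63.2 FPKM in R and 68.9 and 68.0 FPKM in vehicle. It exceeded Lgals9 in both R libraries, and lay below it in both vehicle libraries. Cd4 was at 6.35 to 8.14 FPKM and Cd79b at 0.695 to 2.22 FPKM, in libraries where Cd3e and Cd8a were listed at 0.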
